A study of Mus musculus with 8 samples.

Results

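Fatty acid oxidation in mitochondria and peroxisomes was followed through 37 genes, all of which were found among the 37583 genes listed in the count table of each library. They were taken from a list of beta-oxidation and peroxisome genes and sorted by where their proteins work: 16 mitochondrial, 16 peroxisomal and 5 found in both compartments. RNA of whole mouse kidneys was sequenced in 8 libraries. In 4 libraries, labelled knockout, the animals carried a Six2-driven Cre recombinase together with 2 floxed alleles of TFAP2A and 1 floxed and 1 wild-type allele of TFAP2B (Six2Cre+TFAP2Afl/flTFAP2Bfl/WT); the other 4, labelled wildtype, came from littermate controls, whose own alleles the sources used here do not give. Six2 marks nephron progenitors, so the Cre is expected in nephron epithelium and not in vessels, stroma or blood cells, which whole kidney also holds. Libraries are named KO1 to KO4 and WT1 to WT4 by label and replicate number, and KO and WT stand for the label throughout. The sources used here state no age, sex, diet or time of collection, nor whether libraries and animals correspond 1 to 1, so p-values here reflect only the spread among the libraries, which may be technical.

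Beta-oxidation shortens a fatty acyl-CoA from its carboxyl end through dehydrogenation, hydration, a further dehydrogenation and thiolysis. In mitochondria the long-chain acyl group enters as a carnitine ester, acyl-CoA dehydrogenases hand their electrons to the electron transfer flavoprotein and so to the respiratory chain, and the cycle yields ATP. In peroxisomes acyl-CoA oxidases hand electrons to oxygen, the hydrogen peroxide formed is broken down by catalase, and very long-chain, branched and dicarboxylic acids are shortened for export to mitochondria. The proximal tubule is the segment of the nephron that relies most on fatty acids as fuel and is rich in both organelles. Many of these genes are known targets of the fatty acid sensor PPAR alpha.

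The targeted genes were read first. Tfap2a, which encodes AP-2 alpha, ranged from 3.64 to 5.81 CPM (read counts scaled to a common library total) in KO libraries and from 2.78 to 5.31 CPM in WT libraries, and Tfap2b, which encodes AP-2 beta, from 58.0 to 103 CPM and from 51.8 to 100.4 CPM. Neither was lower by label, with log2 differences of 0.26 (SE 0.24) and 0.03 (SE 0.22), so every direction below is by label only; the sources used here do not give the floxed exons, and gene counts include exons outside a deleted stretch. Gene counts totalled 13871861 to 16629301 per library. All 8 libraries read as male by transcripts, with Xist at 0.57 to 1.00 CPM and Ddx3y of chromosome Y at 72.1 to 92.3 CPM. Summed proximal tubule markers (12 genes) stood at 23527 to 29221 CPM in all 8 libraries, and the skeletal muscle markers (5 genes) at no more than 2.35 CPM. Some libraries stood apart in other transcripts. The 8 adrenal cortex markers summed to 952 CPM in KO2 and 920 CPM in WT1, with at most 13.0 CPM elsewhere. The 5 heat-shock genes summed to 829 CPM in KO2 and 1303 CPM in KO4, with at most 410 CPM elsewhere. Arntl, a clock gene, stood at 24.3 CPM in KO4 and 20.4 CPM in WT4, with at most 6.76 CPM elsewhere. The 4 red cell markers reached 7719 CPM in KO1. In whole-organ RNA, fewer cells of a type and less RNA per cell cannot be told apart.

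The targeted factors bind the palindrome GCCNNNGGC, so the 250 bases before each transcription start were searched for it in RefSeq sequence of GRCm38.p6, where 32 of the 37 genes were matched. On either strand, 12 of 32 held it (5 of 14 mitochondrial, 6 of 15 peroxisomal and 1 of 3 of both compartments), against 15.4% of 27025 genes. The members' windows were also richer in G and C, with a median of 58.8% against 52.4% over all genes, and no correction for this was made. The 12 were Acads, Hadha, Slc25a20, Eci1, Echs1, Pex11a, Abcd3, Phyh, Pecr, Hacl1, Dao and Eci2. Stretches before the start of 3 peroxisomal genes are shown as examples of where the palindrome lies, with its letters in capitals, each read 5′ to 3′ along the gene's strand: chr2:4918746-4918995 on the plus strand for Phyh, chr5:114003485-114003702 on the plus strand for Dao and chr7:79743184-79743381 on the minus strand for Pex11a. Each printed stretch holds no exon of the gene, and each holds the palindrome 1 time.
Phyh: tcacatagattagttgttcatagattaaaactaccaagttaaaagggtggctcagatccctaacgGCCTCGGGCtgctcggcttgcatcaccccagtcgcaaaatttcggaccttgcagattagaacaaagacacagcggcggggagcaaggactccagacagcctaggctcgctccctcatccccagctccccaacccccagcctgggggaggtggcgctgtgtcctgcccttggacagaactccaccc
Dao: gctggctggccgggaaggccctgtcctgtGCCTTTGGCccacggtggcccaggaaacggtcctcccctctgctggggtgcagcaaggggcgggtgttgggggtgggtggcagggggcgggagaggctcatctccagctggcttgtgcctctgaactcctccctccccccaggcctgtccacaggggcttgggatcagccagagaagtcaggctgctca
Pex11a: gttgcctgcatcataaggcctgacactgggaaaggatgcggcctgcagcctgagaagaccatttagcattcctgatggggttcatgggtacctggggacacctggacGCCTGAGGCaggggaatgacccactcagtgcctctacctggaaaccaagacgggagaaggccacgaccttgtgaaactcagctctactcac
A match of letters is a description and not a bound site.

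The same windows were searched for other promoter letters, again with no correction for the members' higher share of G and C. The GC box GGGCGG was found on either strand in 22 of 32 members against 35.4% of all genes, and the TATA box letters TATAAA in 0 of 32 against 14.3%. The nuclear receptor core AGGTCA was in 6 of 32 (Acadm, Acadvl, Echs1, Cat, Scp2 and Dao), near the share of 15.8% over all genes. A run of 2 copies of AGGNCA with 1 base (N) between them is the arrangement (DR1) that PPAR alpha and its partner RXR bind. It was in 0 of 32 against 0.4% of all genes, a share too low for 0 of 32 to tell anything. Ehhadh (chr16:21787835-21788084, minus strand) and Cat (chr2:103485161-103485403, minus strand), which are among the members with the lowest p below, carry GC boxes, capitals here. Hadha and Hadhb, the subunit genes of the mitochondrial trifunctional protein, lie on opposite strands of chromosome 5 with 272 bases between their start sites, and the stretch before Hadhb (chr5:30155163-30155247, plus strand) lies between them with 2 GC boxes.
Ehhadh: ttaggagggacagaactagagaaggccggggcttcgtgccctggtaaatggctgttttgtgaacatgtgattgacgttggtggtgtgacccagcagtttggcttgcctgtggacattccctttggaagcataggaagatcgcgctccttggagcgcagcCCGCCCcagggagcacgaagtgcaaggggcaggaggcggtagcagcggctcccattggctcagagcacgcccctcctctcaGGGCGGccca
Cat: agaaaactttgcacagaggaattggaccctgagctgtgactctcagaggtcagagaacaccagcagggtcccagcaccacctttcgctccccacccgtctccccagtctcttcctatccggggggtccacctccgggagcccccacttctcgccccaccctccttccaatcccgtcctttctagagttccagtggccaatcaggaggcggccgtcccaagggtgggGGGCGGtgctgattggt
Hadhb: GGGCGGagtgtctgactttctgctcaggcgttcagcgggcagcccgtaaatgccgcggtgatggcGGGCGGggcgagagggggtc

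Levels across genes were compared as CPM per kb of the gene's principal transcript, averaged over all 8 libraries. The most abundant were Phyh, the peroxisomal enzyme that starts alpha-oxidation of phytanic acid, at 756 CPM per kb, and Acadm, the medium-chain acyl-CoA dehydrogenase, at 755 CPM per kb. Then came Etfb, the beta subunit of the electron transfer flavoprotein (559), Cat, catalase (455), and Pecr, a peroxisomal enoyl-CoA reductase (412). Hadh, the short-chain hydroxyacyl-CoA dehydrogenase (403), Ehhadh, the peroxisomal bifunctional enzyme (389), and Etfa, the alpha subunit of the flavoprotein (351), followed. The lowest were Hacl1, the lyase that cleaves hydroxylated branched acyl-CoA (17.8), Hadhb, the trifunctional protein's beta subunit (20.5), and Decr2, the peroxisomal dienoyl-CoA reductase (22.8). Phyh (692 ± 179, SD, n = 4, in KO libraries; 821 ± 20.1 in WT libraries) and Acadm (716 ± 23.8 and 793 ± 83.6) had overlapping ranges of mean ± SD under either label, as did Hadh (396 ± 28.2 and 410 ± 5.45) and Ehhadh (341 ± 30.4 and 437 ± 79.5, both in CPM per kb). Per kb of all annotated exons instead, Phyh was still first (575 CPM per kb), Cat was at rank 2, and Echs1, the mitochondrial enoyl-CoA hydratase, moved from rank 10 to rank 24. Together the 37 genes took 1.37% to 1.61% of all gene counts in a library.

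**Figure D1:**
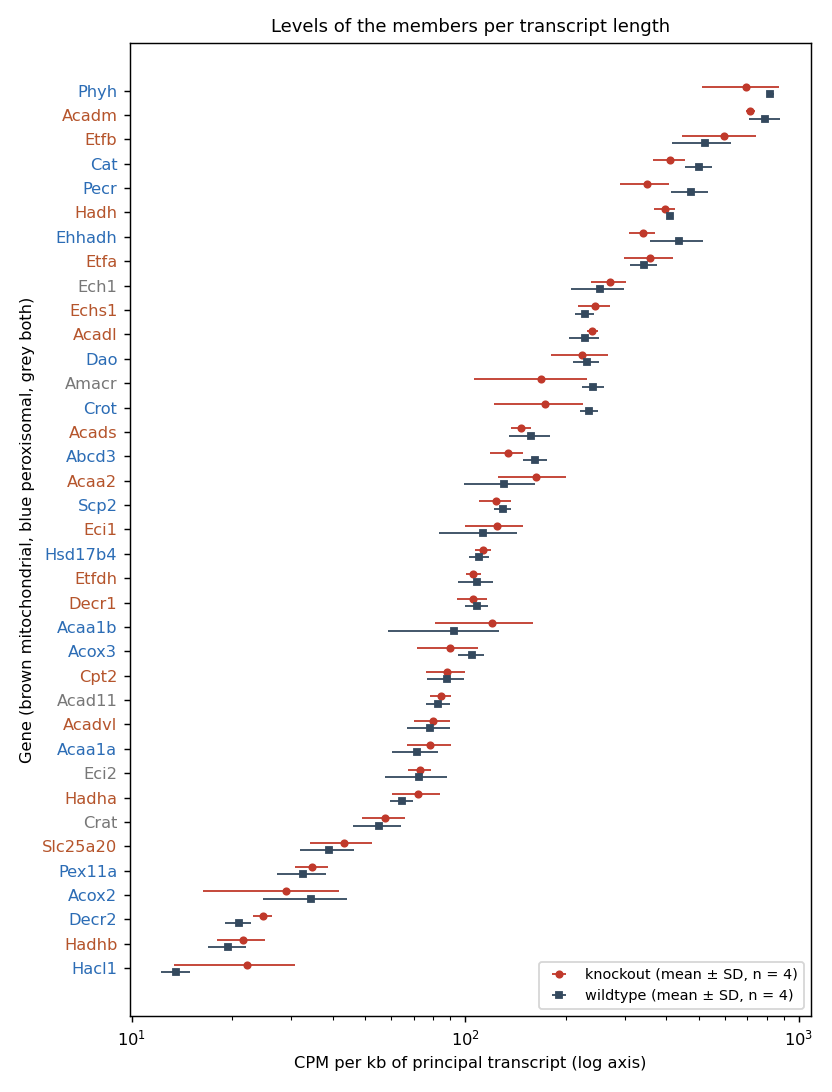
Level of each of the 37 genes as CPM per kb of its principal transcript (log axis), mean ± SD over 4 libraries labelled knockout (red circles) and 4 labelled wildtype (dark squares), ordered by the mean over all 8, with mitochondrial names in brown, peroxisomal in blue and both compartments in grey. Phyh and Acadm are highest, at 756 and 755 CPM per kb, and Hacl1 is lowest, at 17.8 CPM per kb.

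Some levels are limited by how reads can be placed, since the authors' counting set aside reads with no unique place. Of the 50-base windows of the principal transcript of Hadhb, 62.4% are also found at another locus, mostly the pseudogene Gm13910, which itself had 28 to 54 counts per library. The share was 41.4% for Scp2, the sterol carrier protein with thiolase activity (pseudogene Scp2-ps2). For the peroxisomal ketoacyl-CoA thiolase genes Acaa1a and Acaa1b, which are close copies of each other, it was 34.0% and 35.6%. Exons of another listed gene overlap 45.02% of the exon bases of Acadvl (by Dvl2), 13.9% of Acad11 (by Ackr4), 13.3% of Acaa1b (by Dlec1) and 10.8% of Eci2 (by Gm16984). These 7 genes, where a share is over 10%, are therefore given as uncertain in level.

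Between libraries labelled knockout and wildtype, no change passed the test at any of the 37 genes. By edgeR's quasi-likelihood test over 14433 genes, 0 of 37 were called, with a smallest adjusted p of 0.957, and 0% of all tested genes were called. DESeq2 and limma-voom also called 0 of 37. Log2 differences, knockout minus wildtype, were positive for 21 and negative for 16, with a median of 0.03 against 0.01 over all genes. At an unadjusted p under 0.05 there were 8 of 37 (21.6%), where the background was 4% of all tested genes: 2 higher (2.17% of all genes) and 6 lower (1.84%). The groups overlapped in CPM at every member, against 1.97% of all genes whose groups did not overlap. The count of 8, beside 578 genes over the whole table, changed with the libraries used. Without KO3 it was 13 (1252 genes over the whole table), without WT1 6 (1250) and without WT3 5 (414). Without KO4 or WT2 it was 4 (536 and 343), and without KO1, KO2 or WT4 it was 2 (462, 427 and 403). It was 3 (770) without KO2 and WT1, the adrenal libraries, and 2 (904) without KO2 and KO4, the heat-shock libraries. It was 0 (309) without KO4 and WT4, the libraries with high Arntl. Fits with fewer libraries also have less power.

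The intervals bound how large an undetected difference could be. The 95% interval fell inside -1 to 1 for 35 of 37 members and inside -0.5 to 0.5 for 22, against 86.5% and 52.1% of all tested genes. The median standard error was 0.14. The 2 members whose interval reached past 1 were Hacl1 (0.16 to 1.26) and Acaa1b (-0.28 to 1.03), both on the positive side.

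**Figure D2:**
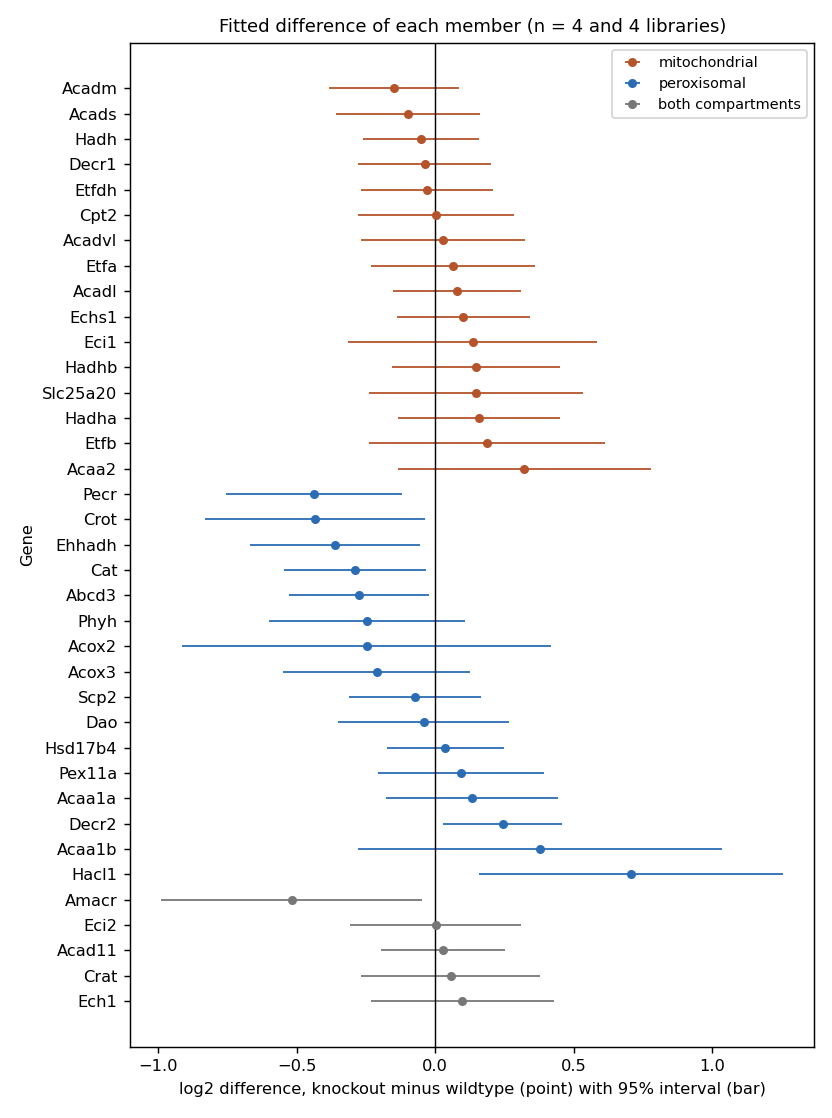
Fitted log2 difference (knockout minus wildtype, points) with its 95% interval (bars) for each of the 37 genes, 4 libraries per label, coloured by compartment. All 16 mitochondrial points lie between -0.15 (Acadm) and 0.32 (Acaa2), and the peroxisomal points spread from -0.44 (Pecr) to 0.71 (Hacl1).

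In the mitochondrial cycle no gene passed the test. Of its 16 genes 11 had positive and 5 negative log2 differences, with a median of 0.07. At an unadjusted p under 0.05 by edgeR there were 0 of 16, near the share of 4% of all tested genes. The median was 0.0031 without WT3, 0.03 without KO1, 0.12 without WT1, 0.13 without the adrenal libraries, 0.03 without the heat-shock libraries and 0.11 without KO4 and WT4. All 16 intervals lay within 1 log2 unit of 0, and 12 within 0.5. For entry, Cpt2, the carnitine palmitoyltransferase of the inner membrane, stood at 209 ± 28.1 CPM (SD, n = 4) in KO libraries and 209 ± 26.4 CPM in WT libraries, a log2 difference of 0.00203 (SE 0.13). Slc25a20, the carnitine-acylcarnitine carrier, stood at 77.3 ± 16.2 and 69.8 ± 12.8 CPM, and its lowest values were in KO3 (54.7 CPM), WT2 (58.0 CPM) and WT3 (59.4 CPM).

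The acyl-CoA dehydrogenases take the first step, each for its own chain length. Acadm, the most abundant of them, stood at 1440, 1462, 1534 and 1424 CPM across KO1 to KO4 and 1478, 1679, 1497 and 1842 CPM across WT1 to WT4. The groups overlapped, with WT2 and WT4 above all others, and the log2 difference was -0.15 (SE 0.11, 95% interval -0.38 to 0.09). Acadvl, Acadl and Acads, for very long, long and short chains, differed by 0.03 (SE 0.13), 0.08 (SE 0.10) and -0.10 (SE 0.12).

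Their electrons pass to the electron transfer flavoprotein. Etfb stood at 696, 572, 397 and 460 CPM across KO1 to KO4 and 593, 459, 368 and 446 CPM across WT1 to WT4, highest in KO1 and lowest in WT3. Etfa stood at 611, 473, 499 and 412 CPM and at 533, 463, 485 and 427 CPM in the same order. Both genes had their highest value in KO1, both groups overlapped, and the log2 differences were 0.19 (SE 0.19) for Etfb and 0.06 (SE 0.13) for Etfa. Etfdh, the dehydrogenase that passes these electrons to ubiquinone, differed by -0.03 (SE 0.11).

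The later steps gave differences of similar size. Hadha and Hadhb, which as trifunctional protein carry long chains through hydration, dehydrogenation and thiolysis, differed by 0.16 (SE 0.13) and 0.15 (SE 0.14). Hadh was the steadiest member, with a highest library only 1.16 times its lowest and a log2 difference of -0.05 (SE 0.09). Echs1 differed by 0.10 (SE 0.11). Acaa2, the mitochondrial thiolase, had the largest ratio of highest to lowest library among the mitochondrial genes (2.13), from 142 CPM in WT2 to 301 CPM in KO4, and a log2 difference of 0.32 (SE 0.21). Decr1 and Eci1, which prepare unsaturated chains, differed by -0.04 (SE 0.11) and 0.14 (SE 0.20).

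Peroxisomal members spread more widely. Of 16 genes 6 had positive and 10 negative log2 differences, where 48.7% of all tested genes were negative, with a median of -0.14. Of the 8 members with an unadjusted p under 0.05, 7 were in this group, against 4% of all tested genes. Of these 7, 2 were higher (2.17% of all tested genes) and 5 lower (1.84%), and 0 passed adjustment over all genes. The peroxisomal median was 0.21 below that of the mitochondrial genes. This gap was 0.08 without WT3, 0.14 without KO1, 0.04 without KO2 and KO4, and 0.11 with the genes of both compartments counted as peroxisomal. It was 0.34 without KO3, 0.25 without WT1, WT4 or the adrenal libraries, and 0.30 without Acaa1a and Acaa1b, which are uncertain in level. The peroxisomal median was -0.26 without KO3, -0.06 without KO4, -0.08 without WT3 and -0.0084 without KO2 and KO4, the heat-shock libraries. With the 5 genes of both compartments added it was -0.04, and without Acaa1a and Acaa1b it was -0.23.

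Ehhadh (chromosome 16, 21761287 to 21787807 on GRCm38), the bifunctional hydratase and dehydrogenase for dicarboxylic and long chains, had lower values by label. It stood at 910, 1011, 1012 and 1131 CPM across KO1 to KO4 and 1091, 1285, 1201 and 1639 CPM across WT1 to WT4. The groups overlapped at KO4 and WT1, with a log2 difference of -0.36 (SE 0.14, 95% interval -0.67 to -0.05; unadjusted p = 0.0256 and adjusted p = 0.957, edgeR). Cat (chromosome 2, 103453849 to 103485160) stood at 932, 1065, 1215 and 1071 CPM and at 1194, 1288, 1275 and 1479 CPM. KO3 lay above WT1, and the log2 difference was -0.29 (SE 0.12, unadjusted p = 0.0311). For both genes the highest library was WT4.

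Pecr (chromosome 1, 72259167 to 72284314), which reduces enoyl-CoA in fatty acid chain elongation, had the lowest p of the 37 genes. Its values were 348, 380, 510 and 422 CPM across KO1 to KO4 and 460, 580, 579 and 628 CPM across WT1 to WT4. KO3 lay above WT1 and all other libraries were ordered by label, with a log2 difference of -0.44 (SE 0.14, 95% interval -0.76 to -0.12; unadjusted p = 0.0118 and adjusted p = 0.957, edgeR). Crot and Abcd3 complete the count of 8 and are named after their values were seen. Crot (chromosome 5, 8966033 to 8997324), the carnitine octanoyltransferase that readies shortened chains for export, stood at 423, 500 and 412 CPM in KO1, KO2 and KO4 but at 747 CPM in KO3, against 671 to 767 CPM in WT libraries (log2 difference -0.43, SE 0.18). Abcd3 (chromosome 3, 121758774 to 121815302), a transporter that brings acyl-CoA into the peroxisome, ranged from 419 to 543 CPM and from 502 to 610 CPM by label, again with KO3 the highest of its group (log2 difference -0.27, SE 0.11).

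Hacl1 and Decr2 were the 2 members with higher values by label at an unadjusted p under 0.05. Hacl1 (chromosome 14, 31598730 to 31641286), whose lyase also acts in alpha-oxidation, stood at 87.5, 47.3, 34.1 and 65.2 CPM across KO1 to KO4 and 40.8, 34.3, 35.8 and 32.6 CPM across WT1 to WT4. KO1, KO2 and KO4 lay above every library labelled wildtype and KO3 lay among them; the log2 difference was 0.71 (SE 0.25, 95% interval 0.16 to 1.26; unadjusted p = 0.0170 and adjusted p = 0.957, edgeR), and 0.45 without KO1. Its highest library was 2.69 times its lowest, the largest such ratio among the 37. Decr2 (chromosome 17, 26081208 to 26090337) stood at 58.1, 57.4, 50.1 and 54.4 CPM and at 42.1, 52.3, 46.5 and 45.02 CPM. Its groups overlapped at KO3 and WT2, with a log2 difference of 0.24 (SE 0.10, unadjusted p = 0.0306).

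**Figure D3:**
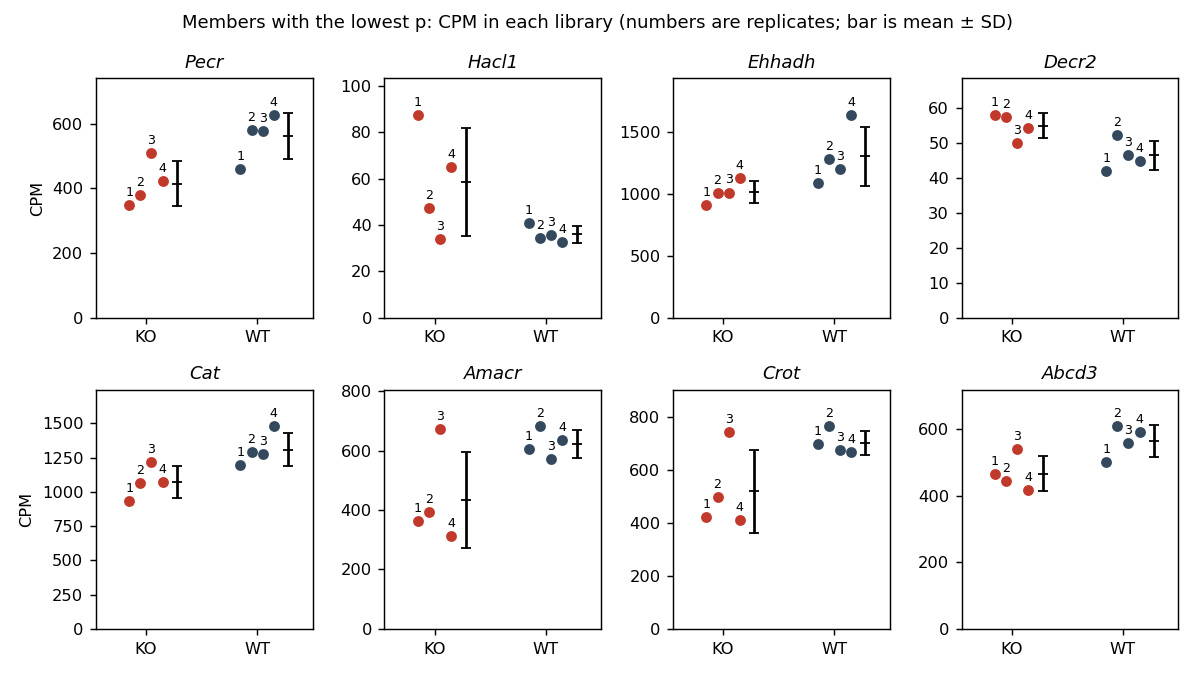
CPM of the 8 genes with an unadjusted p under 0.05 in each library (points, numbered by replicate, KO knockout in red and WT wildtype in dark), with mean ± SD (bars, n = 4), each panel from 0. In Amacr and Crot KO3 (672 and 747 CPM) lies among the wildtype points while the other 3 knockout points lie below them.

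The other peroxisomal oxidation enzymes did not reach that level. Phyh, the most abundant, stood at 896, 910, 1373 and 800 CPM across KO1 to KO4 and 1200, 1172, 1144 and 1207 CPM across WT1 to WT4. KO3 was the highest of all 8 and the other 3 knockout replicates the lowest, with a log2 difference of -0.25 (SE 0.16), which was -0.44 without KO3. Acox2, the oxidase for branched chains and bile acid precursors, stood at 64.8, 77.1, 138 and 57.3 CPM and at 84.9, 113, 133 and 70.1 CPM. Its high values were in KO3, WT2 and WT3, and the log2 difference was -0.25 (SE 0.30). It was -0.59 without KO3, -0.38 without WT4, -0.14 without KO1, -0.10 without KO4 and -0.08 without WT3. Acox3, a further oxidase for branched chains, ranged from 263 to 454 CPM and differed by -0.21 (SE 0.15). Hsd17b4, the multifunctional enzyme for branched and very long chains, and Scp2 differed by 0.04 (SE 0.10) and -0.07 (SE 0.11).

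Acaa1b, a peroxisomal thiolase, was low in the libraries where Acox2 was high. It stood at 237, 271, 119 and 185 CPM across KO1 to KO4 and 238, 116, 118 and 152 CPM across WT1 to WT4. Low values were in KO3, WT2 and WT3, the groups overlapped, and the log2 difference was 0.38 (SE 0.29). It was 0.21 without KO2 and 0.66 without WT1, the lowest and highest with 1 library left out. Its near copy Acaa1a differed by 0.13 (SE 0.14). Pex11a, a membrane protein of peroxisome division, and Dao, the peroxisomal D-amino acid oxidase, differed by 0.09 (SE 0.14) and -0.04 (SE 0.14).

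Among the 5 genes of both compartments, Amacr (chromosome 15, 10981756 to 10996626), the racemase that makes branched acyl-CoA and bile acid precursors fit for oxidation, stood at 363, 393, 672 and 312 CPM across KO1 to KO4 and 606, 682, 571 and 634 CPM across WT1 to WT4. KO1, KO2 and KO4 lay below every library labelled wildtype, and KO3 above 3 of them. The log2 difference was -0.52 (SE 0.21, 95% interval -0.99 to -0.05; unadjusted p = 0.0338 and adjusted p = 0.957, edgeR), and -0.81 without KO3 (adjusted p = 0.156), the smallest adjusted p of any member under any alternative run. Crat, the carnitine acetyltransferase, differed by 0.06 (SE 0.15), and Acad11, an acyl-CoA dehydrogenase, by 0.03 (SE 0.10). The isomerases Ech1 and Eci2, which move the bonds of unsaturated chains, differed by 0.10 (SE 0.15) and 0.00179 (SE 0.14).

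Mitochondrial and peroxisomal genes did not follow the same order over the libraries. The mean log2 deviation of the 16 mitochondrial genes from their own means was highest in KO1 (0.18) and WT1 (0.11) and lowest in WT3 (-0.19) and KO3 (-0.13). That of the 16 peroxisomal genes was lowest in KO4 (-0.12) and KO1 (-0.07) and highest in WT1 (0.07). Peroxisomal genes took 0.600%, 0.667%, 0.739% and 0.636% of gene counts across KO1 to KO4 and 0.734%, 0.747%, 0.747% and 0.810% across WT1 to WT4. KO3 lay above WT1, and the other knockout replicates lay below all wildtype replicates. Mitochondrial genes took 0.565% to 0.658% and 0.551% to 0.630% by label. The ratio of peroxisomal to mitochondrial counts was 0.912, 1.06, 1.31 and 1.07 across KO1 to KO4 and 1.17, 1.30, 1.36 and 1.29 across WT1 to WT4. It was 1.09 ± 0.16 and 1.28 ± 0.08 (SD, n = 4), and the groups overlapped through KO3. No test was made of these sums, since the genes were chosen with earlier results known.

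**Figure D4:**
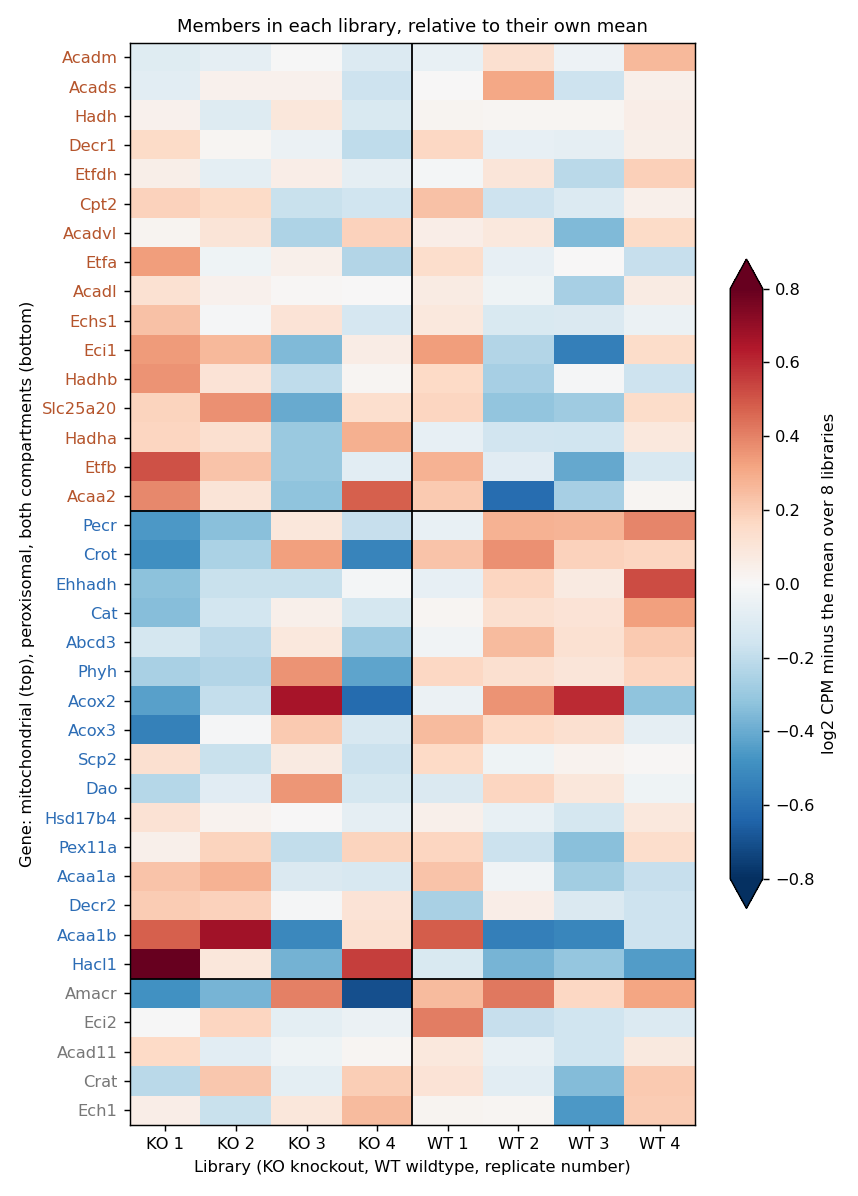
Log2 CPM of each gene in each library minus its mean over the 8 libraries (colour from -0.8 to 0.8), with mitochondrial, peroxisomal and both-compartment genes in blocks and the labels separated by the vertical line. In the upper peroxisomal rows (Pecr to Phyh) KO1, KO2 and KO4 are mostly blue and KO3 is mostly pale or red.

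Genes known to respond to PPAR alpha and fasting differed widely between libraries of the same label. The 11 genes of that list summed to 832, 944, 335 and 968 CPM across KO1 to KO4 and 851, 368, 385 and 657 CPM across WT1 to WT4, with KO3, WT2 and WT3 low. Of 9 tested members 7 were positive and 2 negative, with a median log2 difference of 0.51, 2 had an unadjusted p under 0.05 and 0 were called. Cyp4a14, a fatty acid omega-hydroxylase, stood at 34.0, 18.2, 2.37 and 49.9 CPM across KO1 to KO4 and 10.1, 2.88, 3.73 and 9.56 CPM across WT1 to WT4. KO3 was the lowest of all 8 (log2 difference 1.99, SE 0.84). Vnn1, a pantetheinase, ranged from 104 to 190 CPM and from 66.7 to 135 CPM by label (log2 difference 0.59, SE 0.25).

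Markers of fat tissue, when summed, were low in the same libraries. The 7 white fat markers summed to 753, 757, 241 and 535 CPM across KO1 to KO4 and 755, 274, 214 and 414 CPM across WT1 to WT4. The 5 brown fat markers summed to 88.9, 174, 44.4 and 206 CPM and to 178, 57.7, 63.6 and 120 CPM. Of the defining markers, Adipoq ranged from 11.7 to 41.8 CPM and Ucp1 from 13.0 to 129 CPM, and neither was at 0 in any library. Lep, a white fat marker at low counts, went the other way, with its highest values in KO3 (3.56 CPM) and WT2 (2.13 CPM). KO3, WT2 and WT3 were picked after values were seen, those of Acox2 and Acaa1b among them, so counts for these libraries are a description. Of the 37 genes, 6 had their 3 lowest values in KO3, WT2 and WT3 (Hadha, Slc25a20, Eci1, Acaa2, Acaa1b and Pex11a), against 5.15% of all tested genes, and 2 had their 3 highest there (Acox2 and Dao), against 4.46%. The part of fat tissue or of the fasting response in these values was not tested. The 6 endothelial markers summed to 331 to 355 CPM in KO libraries and 274 to 306 CPM in WT libraries, with no test of the sum; 0 of 6 were called by edgeR (smallest adjusted p = 0.957), and 4 of 6 had groups that did not overlap (1.97% of all tested genes). Proximal tubule markers (23527 to 28905 and 25975 to 29221 CPM) and thick ascending limb markers (6469 to 8208 and 5666 to 6886 CPM, 6 genes) overlapped in their sums. Their median log2 differences were -0.11 (4 positive, 8 negative) and 0.18 (5 positive, 1 negative). Each list had 1 gene at an unadjusted p under 0.05 by edgeR, against 4% of all tested genes, and 0 called. These were Slc7a13, lower by label, and Slc12a1, higher (log2 difference 0.31, SE 0.14). The proximal marker Slc7a13, an amino acid transporter, stood at 827, 1067, 1412 and 1074 CPM and at 1347, 1724, 1573 and 1709 CPM in the same order, with KO3 the highest KO library and above WT1 (log2 difference -0.54, SE 0.16, edgeR adjusted p = 0.957). The 8 distal and collecting duct markers had a median log2 difference of 0.25, with 6 positive and 2 negative (Slc12a3, -0.18, and Atp6v1b1, -0.12). At an unadjusted p under 0.05 by edgeR, 2 of the 8 were higher by label, against 2.17% of all tested genes, and 0 were called. These 2 were the water channels Aqp2 (0.79, SE 0.31) and Aqp3 (0.31, SE 0.13). The part of these cell types in the lower peroxisomal values was not tested.

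**Figure D5:**
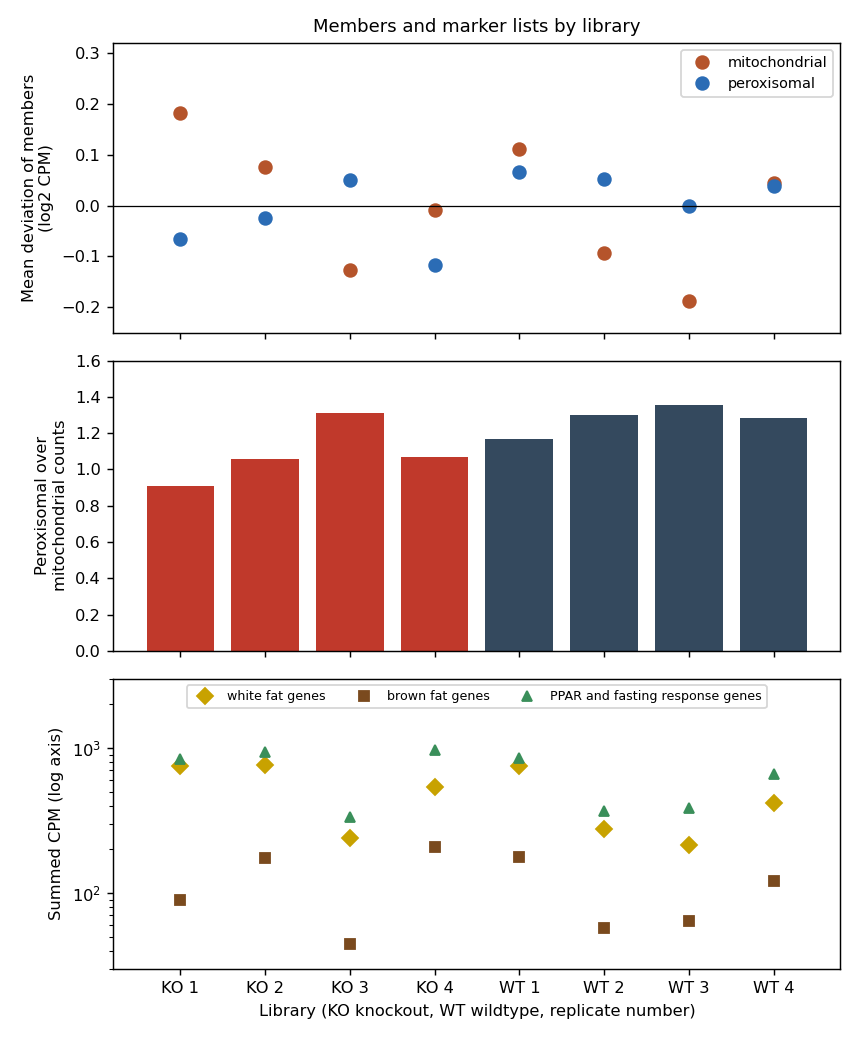
Per library, top: mean log2 deviation of the 16 mitochondrial (brown) and 16 peroxisomal (blue) genes; middle: ratio of their summed counts (bars from 0); bottom: summed CPM of white fat, brown fat and PPAR and fasting response genes (log axis). KO3, WT2 and WT3 are low in all 3 lists of the bottom panel and have ratios of 1.31, 1.30 and 1.36.

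Other genes of the pathway gave no calls either. Of 21 further fatty acid oxidation genes, 13 were positive and 8 negative (median 0.07), and 1 had an unadjusted p under 0.05, which was lower by label. This was Acad9, an acyl-CoA dehydrogenase that also assembles respiratory complex I, at 120 ± 22.8 and 149 ± 8.55 CPM (log2 difference -0.32, SE 0.13).

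Of 36 further peroxisome genes, 16 were positive and 20 negative (median -0.01), 1 was higher and 1 lower at an unadjusted p under 0.05, and 0 were called. These were the only 2 of the 36 whose groups did not overlap (5.56%, against 1.97% of all tested genes). Abcd4, a transporter of the same family as Abcd3 that acts in cobalamin handling, stood at 36.5 to 41.5 CPM in KO libraries and 28.05 to 33.9 CPM in WT libraries (log2 difference 0.34, SE 0.10). Nudt12, a peroxisomal NADH pyrophosphatase, stood at 65.3 to 86.2 and 91.7 to 97.8 CPM (log2 difference -0.34, SE 0.11). Nudt19, a peroxisomal CoA diphosphatase, had a range from 351 CPM in KO1 to 2455 CPM in WT2, with 1358 CPM in KO3 (log2 difference -0.90, SE 0.56).

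The 9 regulators of the pathway, with PPAR alpha among them, gave 5 positive and 4 negative differences (median 0.04), 0 at an unadjusted p under 0.05 and 0 called by edgeR. Those with the lowest p were Ppard, a further fatty acid sensor, at 18.6 ± 2.95 and 24.5 ± 7.10 CPM (log2 difference -0.40, SE 0.20), and Ppargc1a, the coactivator of mitochondrial gene programs, at 97.2 ± 5.98 and 85.9 ± 11.8 CPM (log2 difference 0.18, SE 0.11).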

How the data were processed

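Whole-kidney RNA was isolated with Trizol and went into strand-keeping libraries, per the labels' protocols. The authors deposited whole-number read counts per gene, 1 table per library, without normalization. STAR, HTSeq, edgeR and the build mm9 are named in the submitters' processing notes; the sources used here give neither versions nor annotation. Counting ignored strand, per the deposited file names, so reads of overlapping genes on opposite strands were not told apart. Lines that name no gene were left out: reads in no gene (11.6% to 16.2%), reads in several genes (2.05% to 2.31%) and reads placed at several loci (15.8% to 20.9%). Of 37583 identifiers, 32860 matched a GENCODE M21 symbol; gene positions and lengths are those of GENCODE M21 on GRCm38, and promoter sequences and start sites are RefSeq's on GRCm38.p6. No coordinate was converted.

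Libraries were grouped by title. The test was edgeR 4.0.16 in R 4.3.3 (robust quasi-likelihood, TMM, filterByExpr with a minimum count of 10 and minimum total count of 15), two-sided, genotype as the only term, over 14433 genes, Benjamini-Hochberg threshold 0.05. All 37 genes passed the filter. CPM uses TMM-scaled library sizes, and deviations use log2 CPM with a prior count of 2. A count of 0 would allow up to 0.223 CPM (3 counts, counting error only). The genes and lists were chosen with earlier results of these data known, so no set test was made. Values per library are given for the 6 members with the lowest p, the 3 most abundant (per kb of exons) of each compartment, and the 3 with the largest ratio of highest to lowest library. The 2 genes with the lowest p in each pathway list were also taken, with values per library, as ranges or as mean ± SD. A gene that this rule takes is not reported here. On counts simulated for this comparison with 14278 genes kept, 68.7% of genes with a true log2 change of 1 and 98.0% of those at a change of 2 were called, 9 unchanged genes were called, and 95.3% of intervals held the true value. Changes of a size between 0 and 1 were not simulated, so these shares do not give the power for them. Genes were drawn independently, without shifts shared by many genes of a library. Alternatives were other normalizations, no filter, DESeq2 1.42.0, limma-voom (limma 3.58.1), a replicate block, each library left out, and libraries with adrenal or heat-shock transcripts left out. For the compartment medians only, genes of both compartments were also counted as peroxisomal, and Acaa1a and Acaa1b were also left out. The fit without the libraries with a shifted clock gene, the principal transcript length and the grouping of KO3, WT2 and WT3 were chosen after seeing the data. Plots were made in matplotlib 3.10.9.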

Additional observations from a re-analysis of the deposited data

Results flagged for a closer look

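Of 74 groups of 4 libraries (37 genes under 2 labels), 2 held a library far from the other 3, where chance gives about 1 in 20. Hadh stood at 748 CPM in wildtype replicate 4 and at 727 to 730 CPM in the other 3 wildtype replicates. Eci2 stood at 168 CPM in wildtype replicate 1 and at 111 to 117 CPM in the other 3; its level is uncertain because another gene overlaps part of its exons.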

How the results depend on the processing

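Over 17 alternatives and 37 genes (629 values), 0 were called, with a smallest adjusted p of 0.156 by edgeR without knockout replicate 3. The sign changed in 44 values of 17 genes and never in the other 20. Genes called over the whole table numbered 4 by DESeq2, 1 without the heat-shock libraries and 0 to 2 with 1 library left out. Genes at an unadjusted p under 0.05 numbered 879 without a filter, 1075 with the replicate block, 904 without the heat-shock libraries, 309 without the clock-shifted libraries and 343 to 1252 with 1 library left out. Members at that level numbered 3 without the adrenal libraries, 2 without the heat-shock libraries, 0 without the clock-shifted libraries and 2 to 13 with 1 library left out. The peroxisomal median was -0.0084 without the heat-shock libraries and -0.257 to -0.063 with 1 library left out. The causes were not tested.

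Deviations of same-numbered libraries had correlations of 0.23, -0.23, 0.28 and 0.29 for replicates 1 to 4. Other pairs ran from -0.43 (KO3 with WT1) to 0.45 (KO2 with WT1). These values do not settle whether the numbers pair the libraries. With the replicate block 10 members had an unadjusted p under 0.05, against 8 in the main fit, and 0 were called. Over the whole table the block gave 1075 genes at that level, against 578.

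Sign changes were as follows. Without the heat-shock libraries, log2 differences were -0.10 for Acadvl, 0.032 for Hadh, 0.029 for Etfdh, 0.035 for Decr1, -0.030 for Slc25a20, 0.020 for Acox2, -0.037 for Pex11a, 0.059 for Scp2, 0.057 for Dao, -0.13 for Crat and -0.054 for Eci2. Without the adrenal libraries they were 0.0080 for Decr1 and 0.020 for Scp2. Without the clock-shifted libraries they were 0.050 for Etfdh, 0.030 for Decr1 and -0.015 for Eci2. Without a filter they were -0.0043 for Cpt2 and -0.0038 for Eci2, and by limma-voom -0.00070 for Cpt2. With 1 library left out the ranges were -0.023 to 0.062 for Acad11, -0.073 to 0.11 for Acadvl, -0.061 to 0.089 for Cpt2, -0.041 to 0.14 for Crat, -0.19 to 0.025 for Dao, -0.099 to 0.023 for Decr1, -0.021 to 0.19 for Ech1, -0.0026 to 0.29 for Eci1, -0.058 to 0.17 for Eci2, -0.047 to 0.15 for Etfa, -0.10 to 0.030 for Etfdh and -0.0046 to 0.071 for Hsd17b4.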
